A study of Drosophila melanogaster with 36 samples.

Results

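Abdomens of Drosophila melanogaster females mated to polygamous-line males were compared with abdomens of females mated to monogamous-line males. The comparison used 6 of the 18 libraries of the series, chosen by tissue, mating status and male population: 3 libraries of mates of polygamous populations (P1, P2 and P3) and 3 of mates of monogamous populations (M1, M2 and M3). Each library joined 2 sequencing runs, so 12 of 36 deposited runs entered. All females came from the same IV base population, mated at 3 days of age and frozen at 4 days, 24 h after mating. Their mates came from populations held for 182 generations at a census of 200 adults, either as monogamous pairs or as groups of 5 females and 5 males, and then reared for 1 generation in a common environment. The 3 virgin abdomen libraries of the same age and base population were kept in the statistical model and gave the unmated level. Each library pooled 20 females and stood for 1 evolved male population, so n = 3 male populations per regime, and differences among females within a pool cannot be seen. Spread between libraries holds the male population, the female pool and the library preparation together, and these cannot be told apart.

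In Drosophila, males transfer sperm and seminal fluid proteins, and the female abdomen responds with ovulation, yolk and eggshell production, altered digestion and expression of immune effector peptides. Sex peptide, a seminal fluid protein that binds sperm and acts on a receptor in reproductive tract neurons, carries much of this response. Monogamy removes competition between males and is expected in sexual conflict theory to relax selection on male traits that harm mates. The comparison asks whether a female's abdominal response depends on the regime under which her mate's population evolved.

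The 6 mated abdomen libraries held 41057456 to 56772245 counts. Marker genes were read against the tissue label. Yolk protein genes with the yolk receptor summed to 10993 to 22769 counts-per-million (CPM) in mated abdomens, and all 9 chorion protein genes were above 1 CPM in every abdomen library. Yolk level does not identify the abdomen here. Yp1 stood at 38595 to 55022 CPM in mated heads and at 5042 to 9748 CPM in mated abdomens, each scaled within its tissue. The chorion gene Cp15 stood at 1.18 to 4.17 CPM in mated heads and at 741 to 3765 CPM in mated abdomens. Photoreceptor genes summed to 184 to 235 CPM in mated and 215 to 220.2 CPM in virgin abdomens, with no head sum set beside them. Sex peptide (SP) itself had 0 counts in mated and in virgin abdomens, which allows a level of at most 0.00975 CPM over the 6 mated libraries (3 counts, counting error only). The tissue is bulk, so fewer cells of a type and less RNA per cell cannot be told apart in any value given here.

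No gene differed between mates of the 2 male regimes at an adjusted p below 0.05. Of 10350 genes tested with edgeR's quasi-likelihood test and Benjamini-Hochberg adjustment, 0 were called (0%), and the smallest adjusted p was 0.999832. At an unadjusted p below 0.05 there were 185 genes (1.79%), of which 105 had the higher level in mates of polygamous-line males (1.01%) and 80 the lower (0.773%). Unadjusted p was not evenly spread, as 7.05% of genes lay between 0.95 and 1. Small p were thus fewer than an even spread would give, and the background shares given for gene lists come from this distribution. Libraries did not overlap between regimes for 300 genes with every P library above every M library (2.90%) and for 270 with every P library below (2.61%). In the same abdomens, the contrast of all mated with virgin libraries called 5608 genes (54.2%).

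The data bounded the difference between regimes for most genes. The median absolute log2 change was 0.07, below the median standard error of 0.13. The 95% interval of the change lay inside 2-fold in both directions for 8908 genes (86.1%) and inside 1.5-fold for 7154 (69.1%). A 2-fold difference between regimes was thus outside the interval for most genes, and for the rest it was not resolved with 3 male populations per regime. Of the variation in log2 CPM among the 6 mated libraries, 16.4% lay between regimes, which hold 1 of the 5 degrees of freedom among them.

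Libraries resembled those of the other regime as much as those of their own. Across genes, Pearson's r between log2 CPM of 2 libraries was highest for M1 with P2 (0.991) and for M2 with P3 (0.991), and lowest for P2 with P3 (0.980). These values are descriptions over genes, which are not independent. The first principal component held 38.5% of the variance and placed P3, M2 and P1 at one end and P2, M1 and M3 at the other, so each end held libraries of both regimes. Genes weighing most at the P3 end, read from the loadings after their values were seen, included the early embryo genes Elba1, Elba3, bard, SNCF, bnk and halo, which were high in M2, P1 and P3. They also included CG14645 and the mucin gene Muc68D, which were high in M2, P1 and P3 and in M3, a library at the other end. CG14645 stood at 2.85, 102 and 196 CPM in M1, M2 and M3, at 369, 1.05 and 246 CPM in P1, P2 and P3, and at 76.4, 183 and 1.82 CPM in virgins. Low levels of CG14645 occurred in 1 library of each group, so its level did not follow mating or regime.

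**Figure D1:**
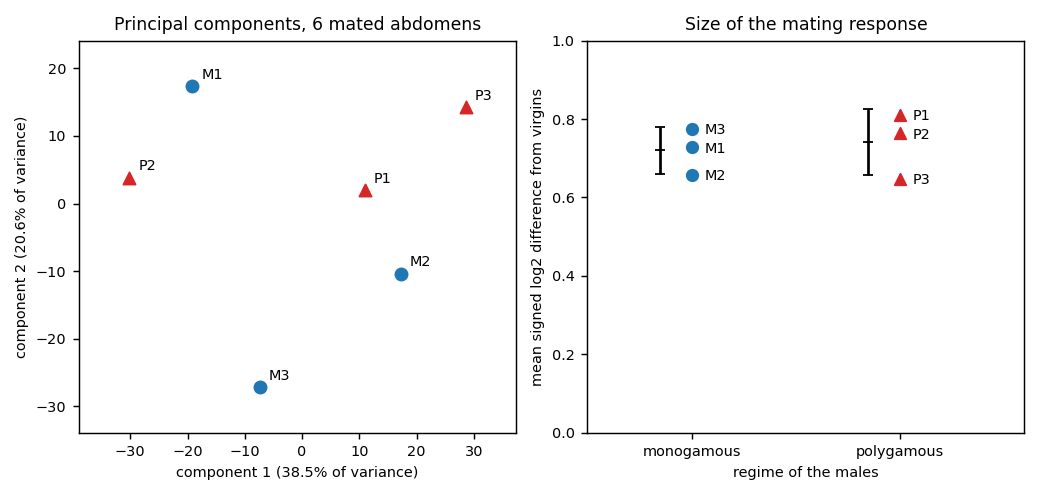
Left, the 6 mated abdomen libraries on the first and second principal components of log2 CPM (38.5% and 20.6% of variance), where circles (M) and triangles (P) intermingle. Right, the mean log2 difference of each library from the virgin mean over 5608 genes that differ between mated and virgin abdomens, signed by direction, with the mean and SD of each regime (n = 3), which overlap.

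The size of the mating response as a whole overlapped between regimes. Over the 5608 genes called between mated and virgin abdomens, the mean log2 difference from virgins, signed by the direction of the call, was 0.73, 0.66 and 0.78 in M1, M2 and M3, and 0.81, 0.76 and 0.65 in P1, P2 and P3. P1 was the highest and P3 the lowest of the 6, so the polygamous libraries enclosed the monogamous ones. The means were 0.72 ± 0.06 for M and 0.74 ± 0.08 for P (SD, n = 3), a difference of 0.02. With muscle and tubule genes as the scaling reference, 7469 genes were called and the difference over them was -0.02. Under that scaling but over the same 5608 genes and signs, a setting added after the data were seen, it was 0.02, so its sign changed with the set of genes and not with the scaling alone. In the main model the reference genes were themselves higher after mating. Their median log2 changes of M minus virgin were 1.02 for muscle and 0.67 for tubule genes, so this scaling shifts mated libraries against virgins.

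The genes with the smallest unadjusted p were examined as candidates that had not passed. Among the 24 with a mean log2 CPM of at least 1, the fitted level was higher in mates of polygamous-line males for 18 and lower for 6, and 21 did not overlap between regimes. They were selected on this contrast, so neither count supports a direction. All had an adjusted p of 0.999832.

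**Figure D2:**
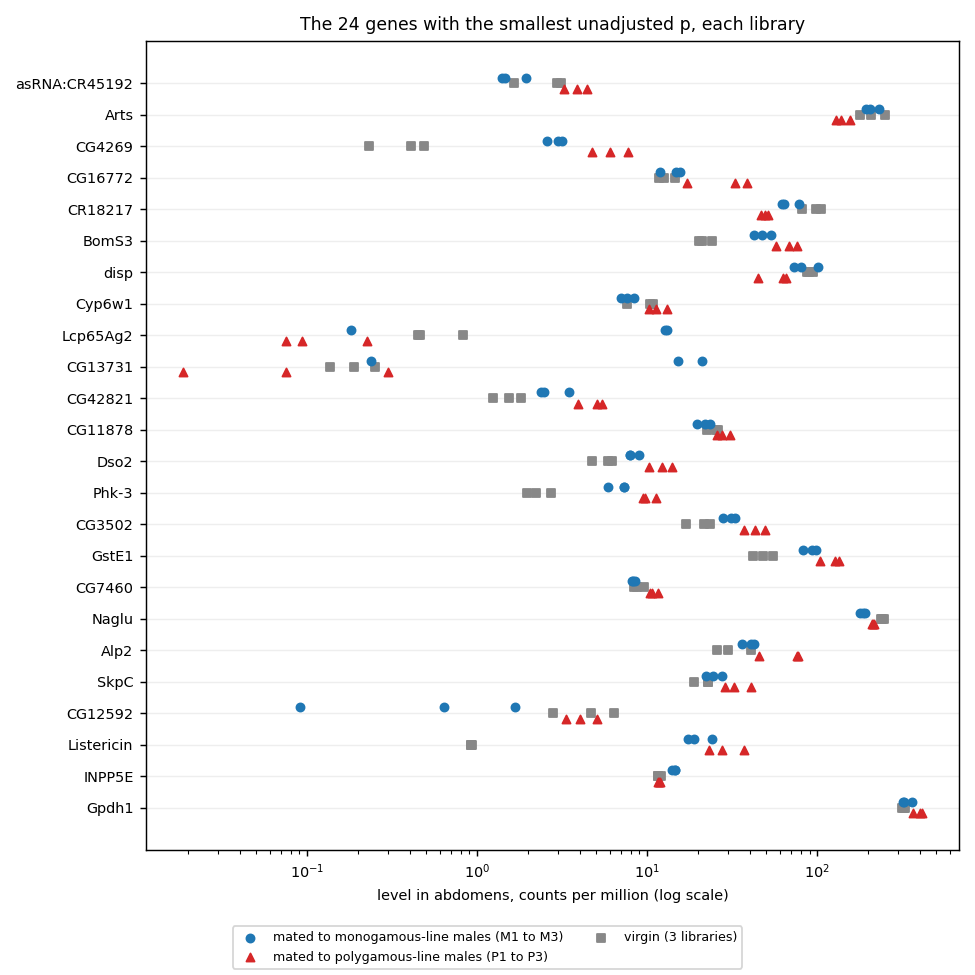
Level of the 24 genes with the smallest unadjusted p in each abdomen library, in CPM on a log axis; circles are mates of monogamous-line males, triangles mates of polygamous-line males and squares virgins. Most rows show 2 narrow groups less than 2-fold apart, while Lcp65Ag2 and CG13731 split M2 and M3 from M1 and all P libraries.

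The smallest p belonged to the antisense RNA gene asRNA:CR45192 (FBgn0266702, BDGP6 3R:5835478-5836178, minus strand). It stood at 1.45, 1.40 and 1.92 CPM in M1, M2 and M3, and at 4.40, 3.26 and 3.84 CPM in P1, P2 and P3. All P libraries were above all M libraries, with virgins at 1.65 to 3.10 CPM. The log2 change was 1.27 (SE 0.27, 95% interval 0.68 to 1.86, unadjusted p = 0.000669). It lies opposite the protein-coding gene CG1208, and because the strand setting of the counting is not given, reads of the 2 genes cannot be told apart.

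The gene disp lies 13.5 kb from asRNA:CR45192 on chromosome arm 3R and encodes Dispatched, which releases lipid-modified Hedgehog from cells. Its levels were 72.6, 101 and 80.5 CPM in M1 to M3 and 62.5, 45.1 and 65.5 CPM in P1 to P3. All P libraries were below all M libraries and below the virgins at 87.2 to 94.7 CPM. The log2 change was -0.56 (SE 0.15, unadjusted p = 0.00413).

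Arts (FBgn0042177, BDGP6 3L:16602851-16608146) and the pseudogene CR18217 are neighbours separated by 128 bases and both had lower levels in mates of polygamous-line males. Arts stood at 194, 231 and 203 CPM in M1 to M3 and at 139, 129.5 and 155 CPM in P1 to P3. CR18217 stood at 63.9, 77.9 and 61.7 CPM in M1 to M3 and at 51.2, 49.0 and 46.8 CPM in P1 to P3. For both genes every P library was below every M library. The log2 changes were -0.57 (SE 0.12) for Arts and -0.47 (SE 0.12) for CR18217, with unadjusted p of 0.000819 and 0.00208. Both overlap another gene on the opposite strand.

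CG4269 and CG16772, which have no name beyond their annotation symbol, had log2 changes near 1. CG4269 stood at 3.00, 3.16 and 2.56 CPM in M1 to M3 and at 7.67, 6.02 and 4.71 CPM in P1 to P3, above 0.230 to 0.485 CPM in virgins. CG16772 stood at 15.5, 11.9 and 14.7 CPM in M1 to M3 and at 32.6, 38.6 and 17.2 CPM in P1 to P3. CG16772 in P3 was close to the M libraries, while CG4269 was well apart in all P libraries. The log2 changes were 1.08 (SE 0.25) and 1.07 (SE 0.26). Both genes, with asRNA:CR45192, passed the threshold with DESeq2 and with muscle and tubule genes as the scaling reference, while Arts passed with DESeq2 alone.

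The remaining candidates were enzymes, immune peptides and genes of unknown role, most with small changes and tight libraries. Naglu, encoding a lysosomal glucosaminidase, stood at 178, 190.0 and 186 CPM in M1 to M3 and at 216, 211 and 213 CPM in P1 to P3. INPP5E, encoding an inositol polyphosphate phosphatase, stood at 14.6, 14.6 and 14.1 CPM in M1 to M3 and at 11.7, 11.8 and 11.6 CPM in P1 to P3. Neither overlapped, but the log2 changes were only 0.21 (SE 0.06) and -0.30 (SE 0.10). Gpdh1, the cytosolic glycerol-3-phosphate dehydrogenase, had a log2 change of 0.24 (SE 0.08), from 318 to 359 CPM in M to 365 to 415 CPM in P.

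Alp2, an alkaline phosphatase gene, stood at 40.8, 42.7 and 35.9 CPM in M1 to M3 and at 75.9, 77.2 and 45.1 CPM in P1 to P3. P3 lay just above the M libraries and far below P1 and P2. CG12592 stood at 0.0908, 0.637 and 1.68 CPM in M1 to M3 and at 3.32, 5.03 and 4.01 CPM in P1 to P3, with virgins at 2.78 to 6.40 CPM. The P libraries of CG12592 were within the virgin range and the M libraries were below it. Its log2 change was 2.40 (SE 0.73). SkpC, which encodes a relative of the Skp1 subunit of ubiquitin ligases, Phk-3, CG3502, CG42821, CG11878 and CG7460 had log2 changes of 0.38 to 0.79. Each of these 6 was higher in every P library than in every M library.

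Among genes of the ovary, yolk genes were far above virgins in mates of both regimes and overlapped between regimes. Yolk proteins are made by fat body and follicle cells and taken up by oocytes through the receptor encoded by yl. Yp1 stood at 9748, 5708 and 8160.5 CPM in M1 to M3 and at 8079, 9205 and 5042 CPM in P1 to P3, against 2108 to 2819 CPM in virgins. M2 and P3 were low and the other 4 libraries high, so the regimes overlapped fully. The log2 change between regimes was -0.08 (95% interval -0.63 to 0.46), while M minus virgin was 1.69 and P minus virgin 1.61, which share the virgin libraries. Yp2 and Yp3 had log2 changes of -0.13 and -0.02. Without P3, the changes of Yp1, Yp2 and Yp3 were 0.14, 0.12 and 0.30, and without M1 they were 0.11, 0.11 and 0.27, so 1 library set their sign.

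Chorion protein genes, which follicle cells express in the last stages of eggshell formation, varied widely between libraries of the same regime. Summed over 9 genes, they stood at 6202, 7257 and 12999 CPM in M1 to M3 and at 11281, 16312 and 5024 CPM in P1 to P3. The polygamous libraries held both the highest and the lowest sum. Their median log2 change was 0.28, 7 of 9 were above 0, and 0 had an unadjusted p below 0.05. The background is 52.4% of all tested genes above 0 and a median of 0.01 over all genes. Cp15 ranged from 741 to 2785 CPM in M and from 932 to 3765 CPM in P, with a log2 change of 0.91 (SE 0.72). The median of the 9 ran from -0.30 to 0.58 when 1 abdomen library was left out at a time, so its sign rested on single libraries.

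Genes of the vitelline membrane and earlier follicle cells had a median log2 change of -0.15, with 3 of 16 above 0 and 0 with an unadjusted p below 0.05. The eggshell gene dec stood at 3205, 2029 and 2304 CPM in M1 to M3 and at 1939, 1903 and 1973 CPM in P1 to P3. The follicle cell protease gene ndl, whose product helps to set embryo polarity, stood at 106, 93.8 and 97.0 CPM in M1 to M3 and at 85.3, 74.5 and 79.1 CPM in P1 to P3. These were the 2 of 16 that were lower in every P library than in every M library (background 2.61%). Their log2 changes of -0.37 (SE 0.32) and -0.31 (SE 0.21) did not pass. For Fcp3C, another follicle cell gene, the log2 change was 0.23 (95% interval -0.87 to 1.34), and it turned to -0.01 without M3. Germline and maternal genes had a median of -0.05, with 10 of 27 above 0.

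Ovulation in flies uses octopamine, its receptor Oamb in follicle cells, and matrix metalloproteinases that rupture the follicle. Oamb stood at 10.6, 11.6 and 23.6 CPM in M1 to M3 and at 24.0, 23 and 13.2 CPM in P1 to P3. M3, P1 and P2 were high and M1, M2 and P3 low, so both regimes held both levels. The log2 change was 0.39 (95% interval -0.31 to 1.10). Mmp2 had a log2 change of 0.11 (SE 0.23), from 20.9 to 29.9 CPM in M to 20.1 to 34.7 CPM in P. Ilp8, which encodes a relaxin-like hormone found in follicle cells, stood at 25, 39.0 and 46 CPM in M1 to M3 and at 49.0, 54.2 and 43.3 CPM in P1 to P3, below 92.9 to 105 CPM in virgins. Its regimes overlapped through M3 and P3, and the log2 change was 0.42 (SE 0.19, unadjusted p = 0.0532).

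On the receptor side of the seminal signal, no gene passed the test. SPR, the sex peptide receptor gene, stood at 35.4, 31.9 and 39.6 CPM in M1 to M3 and at 29.9, 31.1 and 34.1 CPM in P1 to P3, against 11.8 to 18.1 CPM in virgins. M2 lay within the range of the P libraries. The log2 change was -0.17 (95% interval -0.50 to 0.16). Of 14 tested genes of the sex peptide and octopamine circuit, 11 were above 0, with a median of 0.27, and 0 had an unadjusted p below 0.05. Most of these genes were expressed at a low level, and Octbeta2R, an octopamine receptor gene, stood at 9.30 to 12.9 CPM in M and 11.2 to 13.8 CPM in P.

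Male transcripts were nearly absent from both groups. Of 51 seminal fluid protein genes, 27 had no count in the 6 mated libraries, and 2 genes, EbpIII and Est-6, made up 99.6% to 99.8% of the summed level in mated abdomens. The other 49 summed to 0.581 to 0.917 CPM per mated library, and the EbpIII and Est-6 transcripts were also present in virgins at 69.8 to 95.2 and 11.8 to 14.8 CPM. Between regimes their log2 changes were 0.15 (SE 0.15) for EbpIII and 0.17 (SE 0.14) for Est-6. Testis and sperm genes summed to 1.05 to 1.41 CPM in M and 1.10 to 1.51 CPM in P.

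Spermathecae are the sperm storage organs of the female, and their secretory cells express serine proteases. Send1 stood at 17.6, 17.6 and 16.9 CPM in M1 to M3 and at 17.9, 14.0 and 33.4 CPM in P1 to P3. P3 was the only library apart, and without it the log2 change of Send1 went from 0.32 to -0.12. Send2 stood at 3.16, 4.35 and 3.01 CPM in M1 to M3 and at 2.91, 4.96 and 2.74 CPM in P1 to P3, a log2 change of 0.01 (95% interval -0.65 to 0.67). The 9 tested spermathecal genes had a median of 0.05.

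Hormone genes had medians close to that of all genes. Juvenile hormone genes had a median log2 change of -0.01, with 7 of 14 above 0. Jhe, encoding juvenile hormone esterase, stood at 2.40, 2.26 and 2.17 CPM in M1 to M3 and at 2.98, 2.62 and 2.35 CPM in P1 to P3, a log2 change of 0.22 (SE 0.25). Ecdysone genes had a median of -0.07, with 5 of 18 above 0. Their unadjusted p was below 0.05 for 1 gene with the higher level in P (background 1.01%) and for 2 with the lower (background 0.773%).

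The ecdysone-induced nuclear receptor genes Eip78C and Hr4 were the 2 lower ones. Hr4 stood at 13.8, 13.2 and 12.4 CPM in M1 to M3 and at 9.52, 10.5 and 10.3 CPM in P1 to P3. Eip78C stood at 2.85, 1.99 and 2.96 CPM in M1 to M3 and at 1.77, 1.78 and 1.70 CPM in P1 to P3. Neither overlapped between regimes, and the P libraries were closer to virgins (4.10 to 6.45 and 0.481 to 0.808 CPM) than the M libraries. The log2 changes were -0.38 (SE 0.17) and -0.57 (SE 0.24). The higher one was ImpE2, a gene known as ecdysone-inducible in imaginal discs. It was at 0, 0.0205 and 0 CPM in M1 to M3 and at 0.242, 1.5 and 0.317 CPM in P1 to P3, with 0 in every virgin library. Only P2 was above 1 CPM. The log2 change of ImpE2 was 6.20 (SE 1.26), and ImpE2 passed the threshold with DESeq2 (adjusted p = 0.0497).

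Among immune effector genes, those of Bomanins and Daisho peptides had higher fitted levels in mates of polygamous-line males. Bomanins and Daisho peptides are small secreted peptides induced by the Toll pathway in the fat body and needed for defence against fungi and some bacteria. All 14 tested members had a fitted level above 0 for P minus M, against 52.4% of all genes, with a median log2 change of 0.33 (0.01 over all genes) and a range of 0.00 to 0.65. Of these, 5 had an unadjusted p below 0.05 with the higher level in P (background 1.01%), and 4 did not overlap between regimes (background 2.90%). Several of the members are adjacent genes induced together, so they do not count as independent, and 0 of 14 passed the adjusted threshold.

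Their summed level was 233, 221 and 209.7 CPM in M1 to M3 and 288, 319.8 and 248 CPM in P1 to P3, against 113 to 134 CPM in virgins. All P sums were above all M sums, and P3 was the closest to M. BomS3 (FBgn0040736, BDGP6 2R:18387895-18388734) stood at 53.4, 47.0 and 42.4 CPM in M1 to M3 and at 68.5, 76.0 and 57.5 CPM in P1 to P3, with virgins at 20.1 to 24.0 CPM. Its libraries did not overlap, and the log2 change was 0.50 (SE 0.12, 95% interval 0.22 to 0.78, unadjusted p = 0.00225). Dso2, a Daisho gene, stood at 7.90, 8.99 and 7.91 CPM in M1 to M3 and at 12.1, 14.0 and 10.2 CPM in P1 to P3, again without overlap, with a log2 change of 0.55 (SE 0.16). Dso1, the other Daisho gene, and BomBc1 had log2 changes of 0.55 and 0.65, and BomS5 had one of 0.00.

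BomS1 and BomBc2 had log2 changes of 0.58 (SE 0.23) and 0.33 (SE 0.14). BomS1 in P3 was 7.53 CPM, below M3 at 8.33 CPM, so that BomS1 overlapped between regimes. BomBc2 in P3 was 32.9 CPM against 28.6 to 36.0 CPM in M, and it overlapped too. With 1 abdomen library left out at a time, the median of the 14 was 0.25 to 0.42. Between mated and virgin abdomens the medians were 1.06 for M and 1.38 for P, with 12 and 13 of 14 members called higher against 24.4% and 25.9% of all genes, contrasts that share the virgin libraries.

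Antimicrobial peptide genes had changes of both signs, and no test compared them with the Bomanins. Their median log2 change was 0.15, 9 of 15 were above 0, and Listericin and AttA had an unadjusted p below 0.05 with the higher level in P (background 1.01%). Listericin stood at 17.3, 18.8 and 24.1 CPM in M1 to M3 and at 27.5, 37.1 and 23.2 CPM in P1 to P3, against 0.917 to 0.933 CPM in virgins. AttA, an attacin gene, stood at 5.83, 8.97 and 14.5 CPM in M1 to M3 and at 25.4, 16.4 and 13.8 CPM in P1 to P3. P3 lay just below M3 in both genes, so the regimes overlapped. The list median ran from -0.02 to 0.36 when 1 abdomen library was left out at a time. AttA is nearly identical to AttB, and reads may be split between them. AttB had a log2 change of 1.08 (SE 0.51).

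AttC, another attacin gene, and DptA, a diptericin gene, had negative changes with wide errors, and both were chosen after their values were seen. AttC stood at 3.85, 0.144 and 12.6 CPM in M1 to M3 and at 1.77, 0.730 and 2.3 CPM in P1 to P3. DptA stood at 4.63, 0.308 and 9.0 CPM in M1 to M3 and at 2.25, 0.393 and 1.43 CPM in P1 to P3. Levels spread widely within the M group, M3 being the highest and M2 the lowest of all 6 in both genes. The log2 changes were -1.77 (SE 1.29) and -1.76 (SE 1.40). The 37 genes of immune recognition and signalling had a median of 0.06 and 0 with an unadjusted p below 0.05.

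Stress genes differed more between libraries than between regimes. Turandot genes encode secreted proteins induced by stress and infection, and TotA stood at 164, 431 and 26 CPM in M1 to M3 and at 24.7, 13.7 and 249.9 CPM in P1 to P3, with 7.09 to 17.8 CPM in virgins. M1, M2 and P3 were high and the other 3 low. The median log2 change of the 5 tested Turandot genes was -1.03, with 0 above 0 and an SE of 1.35 for TotA. It ranged from -2.90 to -0.09 when 1 abdomen library was left out at a time. Heat shock genes, of which 14 of 15 were above 0, had a median of 0.12, a range of -0.06 to 1.04 over the same omissions, and 0 with an unadjusted p below 0.05. Copies of Hsp70 are nearly identical, so their separate counts are uncertain.

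**Figure D3:**
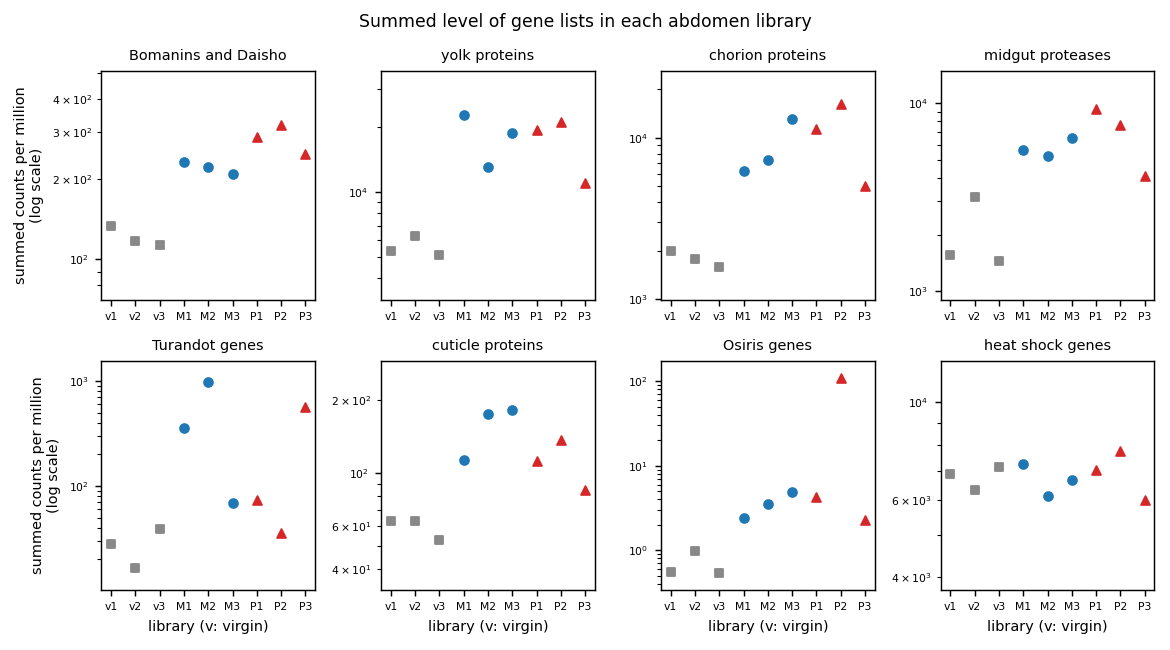
Summed CPM of 8 gene lists in each abdomen library on log axes that differ between panels; squares are virgins, circles mates of monogamous-line and triangles mates of polygamous-line males. Bomanin and Daisho sums of P1 to P3 lie above those of M1 to M3, Turandot sums are high in M1, M2 and P3, cuticle sums in M2 and M3, and the Osiris sum in P2.

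Digestive enzyme genes mostly had small positive changes. Midgut protease genes, trypsins and their relatives, were above 0 in 27 of 29 members, with a median of 0.25. An unadjusted p below 0.05 was seen in 1, Try29F, with the lower level in P (background 0.773%). Their sums were 5661, 5203 and 6543 CPM in M1 to M3 and 9285, 7621 and 4093 CPM in P1 to P3. P1 and P2 were above all M libraries and P3 was the lowest of the 6. The median of midgut proteases ran from 0.00 to 0.38 when 1 abdomen library was left out at a time. Amylase, maltase and lysozyme genes were above 0 in 19 of 21, with a median of 0.27 and 0 with an unadjusted p below 0.05. Their sums were 859, 919 and 967 CPM in M1 to M3 and 1191, 914 and 957 CPM in P1 to P3, with P1 the highest and P3 within the range of M. The alpha-glucosidase gene tobi, a target of insulin-like signals from the brain, had a log2 change of 0.25 (SE 0.31) and stood far below virgins in both regimes.

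Detoxification genes had medians near those of all genes. The 77 tested cytochrome P450 genes had a median log2 change of 0.09, with 53 above 0, 3 higher and 1 lower at an unadjusted p below 0.05 (background 1.01% and 0.773%), and 10 with every P library above every M library (background 2.90%). Cyp6w1 stood at 7.03, 7.60 and 8.36 CPM in M1 to M3 and at 11.3, 13.1 and 10.3 CPM in P1 to P3, without overlap, with virgins at 7.64 to 10.8 CPM. Its log2 change was 0.60 (SE 0.16). Cyp6a8 stood at 0.963, 1.05 and 1.90 CPM in M1 to M3 and at 2.55, 3.72 and 2.53 CPM in P1 to P3, a log2 change of 1.18 (SE 0.29), and of the alternatives run it passed only with muscle and tubule genes as the scaling reference.

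Glutathione transferases, which conjugate toxic molecules with glutathione, had a median of 0.10, with 25 of 34 above 0. GstE1 lies 9.7 kb from BomS3 on chromosome arm 2R. It stood at 92.8, 82.7 and 98.3 CPM in M1 to M3 and at 128, 135 and 104 CPM in P1 to P3. The regimes did not overlap, P3 being nearest to M, and the log2 change was 0.42 (SE 0.13). GstD10 had a log2 change of 0.78 (SE 0.26) at levels of 0.563 to 1.31 CPM. GstE1 and GstD10 were the 2 of 34 with an unadjusted p below 0.05, both higher in P (background 1.01%). Every P library was above every M library for 5 members (background 2.90%) and below for 2 (background 2.61%).

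Genes of fat, muscle and tubules had medians near 0. Lipid storage and synthesis genes had a median of -0.07, with 3 of 18 above 0. FASN2, a fatty acid synthase gene, stood at 327, 311 and 379 CPM in M1 to M3 and at 277, 268 and 279 CPM in P1 to P3, without overlap, a log2 change of -0.30 (SE 0.11, unadjusted p = 0.0208). Insulin and TOR signalling genes had a median of -0.04, muscle genes of -0.04 and renal tubule genes of 0.04. Odorant binding proteins, several of which are made in abdominal tissues, had a median of 0.20, with 16 of 21 above 0, 3 higher and 1 lower at an unadjusted p below 0.05 (background 1.01% and 0.773%). Obp56a stood at 22.8, 30.9 and 32.7 CPM in M1 to M3 and at 32.3, 45.7 and 42.1 CPM in P1 to P3, overlapping through M3 and P1, a log2 change of 0.48 (SE 0.18). Uro, the urate oxidase gene of the renal tubule, stood at 71.2, 78.1 and 59.4 CPM in M1 to M3 and at 106, 89.4 and 73.6 CPM in P1 to P3. P3 lay below M2, and the log2 change of Uro was 0.37 (SE 0.15).

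**Figure D4:**
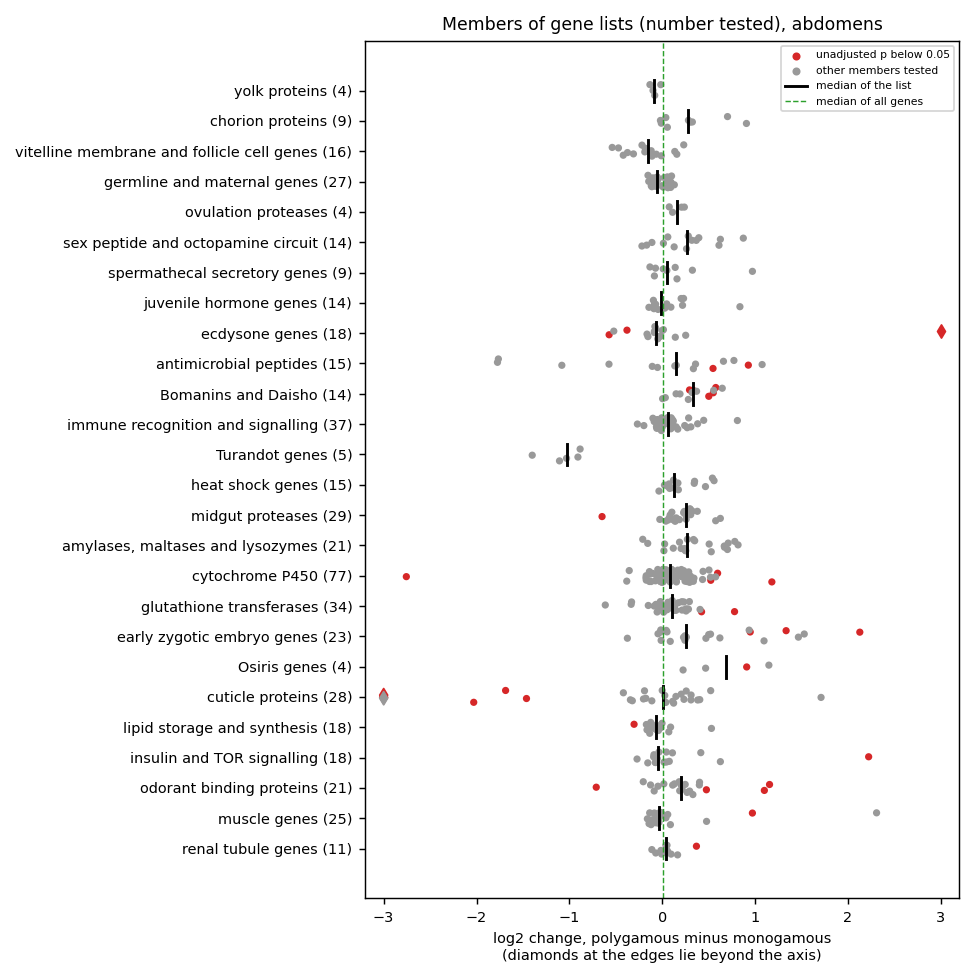
Log2 change, polygamous minus monogamous, of the tested members of 26 gene lists (number tested in brackets); red points have an unadjusted p below 0.05, black bars are list medians and the dashed line is the median of all genes (0.01). Every Bomanin and Daisho member lies at or right of 0, Turandot genes lie left of it, and most other lists straddle it.

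The largest fitted differences came from transcripts present in only some libraries. Cuticle protein genes encode the structural proteins of the insect exoskeleton, and many act in larvae or pupae. Lcp65Ag2, a larval cuticle protein gene, stood at 0.182, 13.1 and 12.8 CPM in M1 to M3 and at 0.0931, 0.0748 and 0.224 CPM in P1 to P3, with virgins at 0.449 to 0.826 CPM. CG13731 stood at 0.236, 15.3 and 21.1 CPM in M1 to M3 and at 0.298, 0.0748 and 0.0186 CPM in P1 to P3. In both genes M2 and M3 stood far above every other mated library, while M1 was with the P libraries. The log2 changes were -6.03 (SE 1.46) and -6.52 (SE 1.61), which did not pass. Lcp65Ag2 has near-identical neighbouring copies, so the count per copy is uncertain.

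The number of cuticle protein genes at 1 CPM or more was 8, 28 and 26 in M1 to M3, 9, 13 and 8 in P1 to P3, and 5 to 7 in virgins, of 120 in the table. M2 and M3 shared 45 genes that were at least 1 CPM in both and at least 4-fold above every other mated library, of which 14 were cuticle protein genes. All 45 were below 1 CPM in every virgin library. No other pair of libraries shared more than 5 such genes.

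P2 had a set of its own, with 39 genes at 1 CPM or more and at least 4-fold above every other mated library, all below 1 CPM in virgins. Osiris genes, a clustered family of insect membrane protein genes active in developing epithelia, led it. Osi6 was at 39.9 CPM and Osi7 at 32.7 CPM in P2, and neither exceeded 0.168 CPM in another abdomen library. Osi19 was at 10.5 CPM in P2, 0.522 to 2.93 CPM in the other mated libraries and 0 in virgins. The log2 change of Osi19 between regimes was 1.15 (SE 1.05), and without P2 it was -0.45. Only 4 of the 15 Osiris genes passed the filter on low counts, so the list median of 0.69 leaves out most of the family.

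Some early embryo genes were present at low levels in yet another set of libraries. Early zygotic genes are the first that an embryo transcribes, and the summed level of their list of 30 did not follow that set. The list summed to 163 to 175 CPM in M, 169 to 199 CPM in P and 139 to 173 CPM in virgins. Its members at 1 CPM or more numbered 10, 13 and 10 in M1 to M3 and 13, 9 and 14 in P1 to P3. Virgins had 7 to 8. By that count M2, P1 and P3, the libraries with bnk, were the highest. The gene bnk, which acts when the early embryo forms cells, stood at 0.0545, 2.40 and 0 CPM in M1 to M3 and at 1.45, 0.0374 and 3.24 CPM in P1 to P3, with 0 to 0.0180 CPM in virgins. M2, P1 and P3 shared it with 7 other genes, including Elba1 and halo, and bnk was the only one on the early zygotic list. Of 23 tested early zygotic genes 18 were above 0, with a median of 0.26 (0.06 to 0.46 with 1 abdomen library left out at a time), and twi, hkb and slp1 had an unadjusted p below 0.05 with the higher level in P (background 1.01%). The patterning gene twi stood at 0.509, 0.801 and 0.715 CPM in M1 to M3 and at 1.83, 0.861 and 1.21 CPM in P1 to P3, a log2 change of 0.95 (SE 0.32). Virgins stood at 0.305 to 0.371 CPM for twi. P2 was only just above M2, so twi did not follow the set of bnk exactly. The gene hkb did, with 0.0182, 0.205 and 0.0493 CPM in M1 to M3 and 0.354, 0.131 and 0.727 CPM in P1 to P3. The gene slp1 did not, with 0.272, 0.205 and 0.320 CPM in M1 to M3 and 0.428, 0.318 and 1.27 CPM in P1 to P3. The part of embryo-type transcripts in any other difference was not tested.

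**Figure D5:**
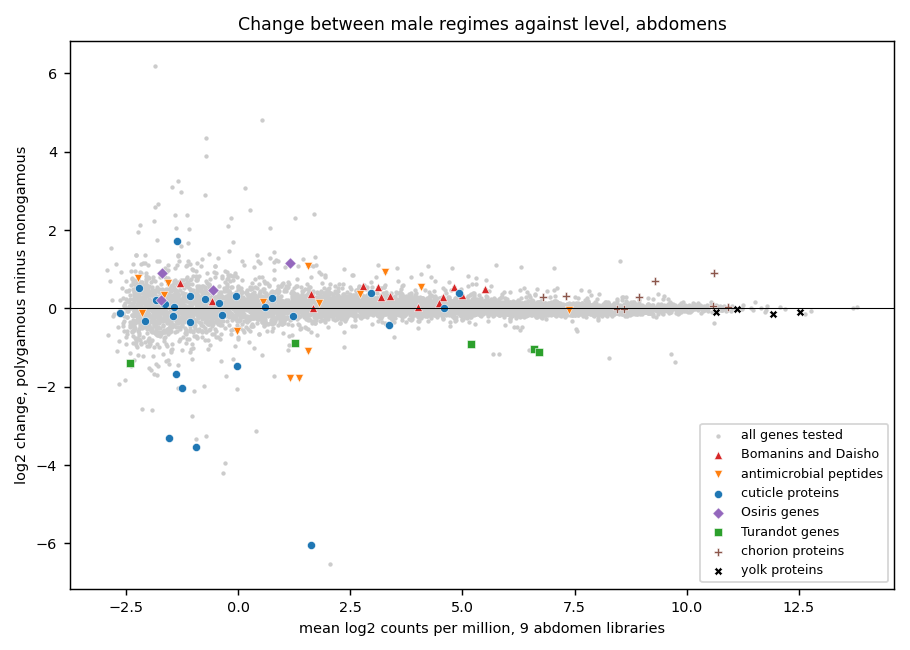
Log2 change, polygamous minus monogamous, of all 10350 tested genes (grey) against their mean log2 CPM over the 9 abdomen libraries, with 7 gene lists marked. Changes at high level lie close to 0, yolk genes included, and Lcp65Ag2 and CG13731, which were high in M2 and M3 alone, lie near -6.

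The zero count of called genes depended on the M1 library, on the tool and on the scaling. Without M1, edgeR called 79 genes, all lower in mates of polygamous-line males. Of the 79, 42 belonged to the 45 shared by M2 and M3 and 25 were cuticle protein genes. Without P3, edgeR called 0 genes, but the smallest adjusted p was 0.051 and 529 genes had an unadjusted p below 0.05. Without P2, edgeR also called 0 genes, with a smallest adjusted p of 0.106. DESeq2 on all 9 libraries called 14 genes, 4 higher and 10 lower, of which 8 belonged to the 45. With muscle and tubule genes as the scaling reference edgeR called 10 genes, 4 higher and 6 lower. Of these, 0 belonged to the 45 and 2 were cuticle protein genes. Read after their values were seen, all of the 6 lower ones but CG13003 were highest in M2 and M3 among mated libraries. The gene sit stood at 1.45, 4.33 and 6.21 CPM in M1 to M3 and at 1.10, 1.44 and 1.04 CPM in P1 to P3. CG13003 stood at 10.4, 4.48 and 8.87 CPM in M1 to M3. Leaving out M2 and M3 together gave 0 called genes, and 170 had an unadjusted p below 0.05. That setting was chosen from the pattern of M2 and M3 and leaves M1 as the only M library, whose spread is assumed to be like that of the other groups, so it is no test of these calls.

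Heads of females mated to males of the same populations gave no call between regimes either. Of 10886 genes tested in heads, 0 were called (0%) and 864 had an unadjusted p below 0.05 (7.94%). The difference between the regime effect in abdomens and in heads was tested in all 18 libraries, fitted as separate samples, and passed for 0 of 11631 genes (0%), with 741 at an unadjusted p below 0.05 (6.37%). The labels do not say that the abdomens and heads of 1 number came from the same females, and the deviations of such libraries from their group means correlated at -0.08 to 0.26 in mated and at -0.40 to 0.24 in virgin libraries. With the abdomen and head of 1 number as a replicate block, 0 genes passed and 745 had an unadjusted p below 0.05. Of the 24 abdomen candidates, 14 had the same sign in heads. In heads BomS3 had a log2 change of 0.19 (SE 0.14) and asRNA:CR45192 one of -2.66 (SE 0.62), the latter at levels of 0.0168 to 0.352 CPM.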

How the data were processed

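RNA of whole abdomens was sequenced as stranded total RNA libraries, per the labels. The submitters' processing notes name Trimmomatic 0.33 for trimming, TopHat2 2.1.0 for alignment to BDGP6 and HTSeq 0.6.1 for counting. The deposited values are counts of reads per gene for 17552 genes, not normalised by the authors; its strand setting and annotation release are not given here, so overlapping genes and near-identical copies are uncertain. Names and coordinates came from Ensembl release 115 of BDGP6, which held 17387 of the identifiers. Both runs of a library were summed.

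Counts were fitted in R 4.3.3 with edgeR 4.0.16 (TMM, filterByExpr, robust quasi-likelihood) over the 9 abdomen libraries in 3 groups, contrast P minus M, Benjamini-Hochberg adjustment over all genes tested, threshold 0.05. The log2 CPM compared between libraries used a prior count of 2. CPM are scaled by TMM library sizes. Standard errors came from the log2 change and its F statistic. The scripts were tested on simulated data. Alternatives included DESeq2 1.42.0 and limma 3.58.1.

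Named genes were the 24 with the smallest unadjusted p and a mean log2 CPM of at least 1, fixed genes of reproduction and immunity, and up to 4 members per list by smallest p. SP, dec, Dso1, BomBc1, BomS5, AttC, DptA, bnk, Elba1, Elba3, bard, SNCF, halo, Osi6, Osi7, CG14645 and Muc68D, with libraries compared for them, were chosen after their values were seen. The members and the 41 gene lists, written from general knowledge (20 symbols not found), were chosen with earlier results of these data known. Nothing in the labels says that pools of 1 group came from separate cultures, so p-values rest on spread among pools that may be partly technical.

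M and P populations share numbers 1 to 3, which the labels do not tie to a shared origin. Deviations from the group means correlated at -0.16, -0.43 and -0.22 for same-numbered libraries, so the main model has no block.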

Additional observations from a re-analysis of the deposited data

How the results depend on the processing

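Of the count of called genes, 0 in the model as reported, 3 settings gave another value: 10 with muscle and tubule genes as the scaling reference, 14 with DESeq2, and 0 to 79 when 1 abdomen library was left out at a time, the 79 arising without M1. For the difference between abdomens and heads, DESeq2 called 23 genes and leaving out 1 mated library gave 0 to 46, again highest without abdomen M1. With the population number as a replicate block, 0 genes were called in the 6 mated and 0 in all 9 abdomen libraries, and 144 and 122 had an unadjusted p below 0.05; the numbers share no known origin, so no pairing was assumed, and under this block Send2 had log2 changes of -0.0186 and -0.00689. The log2 change of Send2, 0.01 as reported, was also below 0 with DESeq2 size factors (-0.0127), DESeq2 (-0.0139), limma voom (-0.0266) and run 2 alone (-0.196). Yp3 turned to 0.00430 with upper-quartile scaling and 0.00805 with muscle and tubule genes as reference, and Fcp3C to -0.33 with M2 and M3 left out together, which leaves M1 as the only M library. With 1 abdomen library left out at a time, the change ran from -0.27 to 0.14 for Yp1, -0.32 to 0.12 for Yp2, -0.27 to 0.30 for Yp3, -0.0111 to 0.63 for Fcp3C, -0.12 to 0.56 for Send1, -0.32 to 0.20 for Send2, -0.12 to 0.29 for Mmp2, -0.45 to 1.68 for Osi19 and -0.0331 to 0.49 for tobi. The cause of these changes was not tested. Each of the 24 genes with the smallest p kept its sign under every setting in which it was tested. Every mated abdomen library held at least 41057456 counts, and precision was limited by 3 male populations per regime, with counting error added at levels below 1 CPM.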

Other observations

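Some gene groups that the report does not describe gave the following values, none of which passed the adjusted threshold. Of the 18 tested genes of neuropeptides and gut hormones, 14 had a fitted level above 0 for polygamous minus monogamous, against 52.4% of all genes. Their median log2 change was 0.18. Tk, encoding tachykinin peptides of gut and brain, stood at 3.49, 3.55 and 3.50 CPM in M1 to M3 and at 6.04, 3.95 and 4.21 CPM in P1 to P3, without overlap. CCHa2, a gut and fat body peptide gene, also did not overlap between regimes, with a log2 change of 0.27. Tk and CCHa2 were the 2 of 18 with every P library above every M library (background 2.90%). Serpin genes, inhibitors of serine proteases that restrain immune cascades, were above 0 in 13 of 14, with a median of 0.10 and 0 at an unadjusted p below 0.05.

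Cytosolic ribosomal protein genes had a median log2 change of 0.05, with 70 of 82 above 0. Their sum was 97473, 73038 and 82409 CPM in M1 to M3 and 91405, 100146 and 69042 CPM in P1 to P3, lowest in P3 and M2, the libraries that also had the lowest yolk sums. Circadian clock genes had a median of -0.03, and vri, a clock transcription factor gene, had a log2 change of -0.24 with an unadjusted p of 0.0493. Chemoreceptor genes had a median of -0.07, with 12 of 27 above 0.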
